A study of Mus musculus with 4 samples.

Results

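The genes described are 54 mouse genes of the type I interferon response and of antigen presentation on MHC class I, taken by symbol from a list of receptors, transcription factors, nucleic acid sensors, antiviral effectors and peptide-loading genes. No measured value enters the rule, but the list was drawn up with earlier results of these data known. Of the 54 genes, 53 were found among the 25261 gene identifiers with values, and Zbp1 is not analysed here. A further 2, Oas1a and Mx1, stayed below the level needed for a test, which left 51 of the 21829 genes tested. All RNA came from cultured adult neural stem cells of C57BL/6 mice aged 8 weeks. In the shOGT group (2 libraries) the cells had been infected with a lentivirus that carried a short hairpin RNA against mouse Ogt, the gene for the enzyme that attaches O-GlcNAc sugars to proteins inside the cell. In the ctrl group (2 libraries) they had been infected with a lentivirus that carried a scrambled hairpin, so every library came from virus-infected cells and no uninfected cells are analysed here. Whether libraries of the same group are separate cultures or animals is not stated in the labels. The p-values therefore reflect the spread between these libraries alone, and that spread may be technical.

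Type I interferons are secreted proteins that cells make when sensors detect viral RNA or DNA outside its proper compartment. They bind a receptor made of IFNAR1 and IFNAR2, which activates transcription factors, STAT2 and IRF9 among them, that bind the interferon-stimulated response element (ISRE) in the promoters of interferon-stimulated genes, whose products block viral replication. Many of the same genes respond to IRF1 or through a gamma-activated site (GAS), among them those that cut peptides, carry them into the endoplasmic reticulum and show them on MHC class I. Stem cells can also express some interferon-stimulated genes without added interferon.

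The deposited value of a gene is a signal in whole multiples of 1 step per library. If a step is 1 read, which the files do not state and which could not be settled for the ctrl libraries, the libraries held between 15697508 and 17753976 reads assigned to genes. The hairpin's target was lower in the libraries labelled shOGT, with an Ogt signal of 3379 and 3516 against 4112 and 4138 in ctrl, a ratio of means of 0.836 (limma log2 fold change -0.26 ± 0.04 SE, adjusted p = 0.00876). All 14 of the neural stem cell markers listed were present, with sums of 132334 and 137833 in shOGT and 141115 and 144989 in ctrl. Markers of endothelial cells, which also express interferon-stimulated genes, were low and had larger sums in shOGT, though none of them was called: the 7 of 10 listed that were found summed to 95.7 and 94.3 in shOGT against 60.8 and 72.4 in ctrl, and 4 of them stayed under 10 in every library. Of the 8 of 16 microglial markers found, 6 stayed under 10 in every library, and C1qa and Tmem119 were at 0 in shOGT 1 and ctrl 2 and Csf1r was at 0 in ctrl 2. Mural and fibroblast markers (7 of 9 found) summed to 37.2 and 39.6 in shOGT and 50.9 and 59.5 in ctrl, and lymphoid markers (3 of 8 found) to 51.0 and 51.8 in shOGT and 48.9 and 40.7 in ctrl. The part of these other cell types in the results was not tested. In RNA from bulk cultures, more cells of a type and more RNA per cell cannot be told apart.

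The promoters of a few members are printed with the letters of elements through which the pathway acts. Some belong to the guanylate-binding protein genes, which hold 2 of the 4 genes called different. The others belong to the MHC class I genes B2m and H2-K1, which ranked 1 and 3 among the listed genes by signal per kilobase of exon. Each promoter is the RefSeq window on GRCm38.p6 from 250 bases before the annotated start to 50 after it, 5′ to 3′ on the gene's own strand. Capitals mark an ISRE core, written here as GAAA, any 2 bases, then GAAA, or a GAS core, TTCNNNGAA, searched on both strands, so that an ISRE core may also read TTTC, any 2 bases, then TTTC. Neighbouring cores may overlap.
Gbp3 (chr3:142559794-142560093, plus strand): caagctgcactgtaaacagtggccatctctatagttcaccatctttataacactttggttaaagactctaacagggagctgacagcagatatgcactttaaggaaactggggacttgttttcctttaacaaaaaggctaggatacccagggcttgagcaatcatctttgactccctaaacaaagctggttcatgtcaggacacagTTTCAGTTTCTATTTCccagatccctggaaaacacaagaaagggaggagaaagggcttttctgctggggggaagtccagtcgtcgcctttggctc
Gbp7 (chr3:142530086-142530385, plus strand): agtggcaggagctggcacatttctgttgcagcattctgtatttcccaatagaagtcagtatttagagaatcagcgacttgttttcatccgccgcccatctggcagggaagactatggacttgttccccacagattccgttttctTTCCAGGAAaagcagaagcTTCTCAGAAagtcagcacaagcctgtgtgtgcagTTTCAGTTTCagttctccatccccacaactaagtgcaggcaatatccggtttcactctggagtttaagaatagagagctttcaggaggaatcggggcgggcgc
Gbp2 (chr3:142620413-142620712, plus strand): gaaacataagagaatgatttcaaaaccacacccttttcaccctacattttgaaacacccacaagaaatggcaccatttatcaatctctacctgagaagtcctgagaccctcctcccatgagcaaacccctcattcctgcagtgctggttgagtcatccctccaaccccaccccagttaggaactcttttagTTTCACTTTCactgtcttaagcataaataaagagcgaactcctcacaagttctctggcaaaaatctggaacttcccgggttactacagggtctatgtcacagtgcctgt
B2m (chr2:122147437-122147736, plus strand): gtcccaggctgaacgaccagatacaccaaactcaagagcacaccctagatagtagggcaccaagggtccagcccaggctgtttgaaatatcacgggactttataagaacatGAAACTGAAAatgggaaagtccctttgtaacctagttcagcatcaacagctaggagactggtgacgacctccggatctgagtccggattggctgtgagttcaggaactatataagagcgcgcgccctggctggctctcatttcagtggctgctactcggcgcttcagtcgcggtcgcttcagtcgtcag
H2-K1 (chr17:34000298-34000597, minus strand): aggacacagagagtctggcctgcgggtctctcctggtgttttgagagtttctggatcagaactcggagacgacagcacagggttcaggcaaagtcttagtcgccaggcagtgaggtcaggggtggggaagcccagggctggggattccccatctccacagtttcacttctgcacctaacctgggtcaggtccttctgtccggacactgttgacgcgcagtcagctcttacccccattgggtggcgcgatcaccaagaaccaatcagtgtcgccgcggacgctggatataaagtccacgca
Gbp3 has a pair of overlapping ISRE cores close to its start, from -45 to -36 and from -39 to -30, and a second RefSeq window of the gene holds neither core. Gbp7 has an ISRE core from -53 to -44 and a GAS core on each of 2 stretches upstream of it, from -106 to -98 and from -87 to -79. Gbp2 has an ISRE core from -59 to -50, B2m has one from -139 to -130, and the H2-K1 window holds neither core in the exact form searched. Variants of the elements were not searched for, so a window without a core may still hold a variant.

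Across the 41 listed genes with a window in the RefSeq table, 17 held an ISRE core (41.5%) and 13 a GAS core (31.7%). Among all 32851 windows of that table the shares were 3.44% for the ISRE core and 8.3% for the GAS core, and counted per gene over 27025 genes they were 3.99% and 9.55%. Isg15 had 3 overlapping ISRE cores, the first from -78 to -69, and Ifit1 and Ifit3 had 2 each. Psmb8 had a GAS core from -97 to -89, Irf1 one from -90 to -82, and H2-D1, Herc6 and Irf7 held neither core. Of the 4 listed genes called different between the groups, only Gbp3 and Gbp7 had windows in the table, and both held an ISRE core. Among the 38 with windows that were tested and not called, 14 held an ISRE core (36.8%). A wider pathway list described below had 7 called genes with windows, of which 2 held an ISRE core (28.6%). A link between core and call was not tested. The 13 listed genes that were not matched are Dhx58, Tmem173, Zbp1, Oas2, Mx1, Mx2, Ifi27, Rtp4, Parp9, Parp14, Usp18, Tap2 and Nlrc5. A match is a run of letters and not a measured binding site. The lack of a match does not show that a promoter has no such element, since only exact cores were searched.

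**Figure D1:**
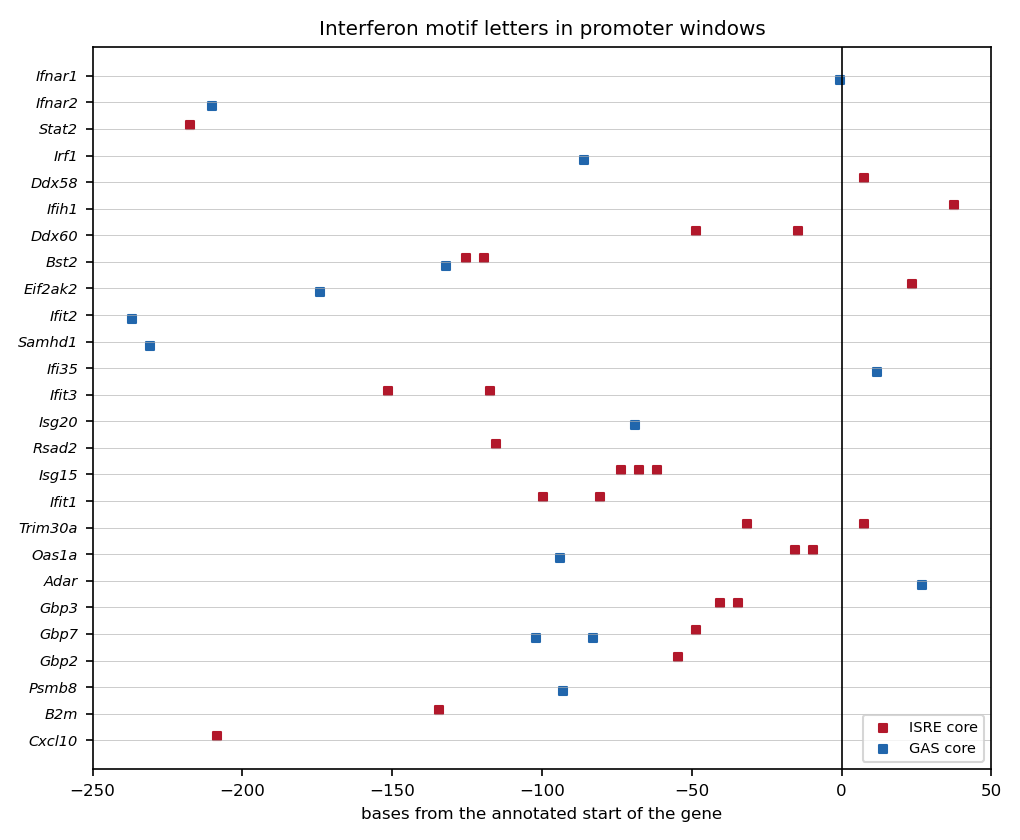
Position of ISRE cores and GAS cores relative to the annotated start (x axis, bases) in the RefSeq promoter windows of the listed genes that hold one (1 gene per row); genes with several windows have all of them drawn. Gbp3, Gbp7 and B2m each have an ISRE core upstream of the start.

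The 51 tested genes differed between the groups in few cases and, with the settings used here, in 1 direction. With limma on log2(signal + 1) and an adjusted p below 0.05, 4 genes were higher in shOGT (Gbp3, Gbp7, Tmem173 and Parp14) and 0 were lower, while 12 of the 51 had an unadjusted p below 0.05 in either direction, as did 4214 of all 21829 genes. This is 7.84% of the 51, against 4.86% of all tested genes called in either direction, 1.96% called higher and 2.90% called lower. Among the listed genes with a mean signal of at least 100, 3 of 28 were called (10.7%), close to the 9.21% of all genes at that level. Below 100, 1 of 23 was called (Parp14), against 0.363% of all such genes. These shares are not matched for level. Below 100, the median of the mean signals was 23.9 for the listed genes and 6.24 for all genes. Over all genes the calls were 427 higher and 633 lower, and 593 higher and 585 lower after the libraries were rescaled to equal totals. Every call in the data, these 4 included, was lost when any single library was left out, with no filter on low values, with quantile normalization, and with no variance trend. With a minimum of 10 in 2 libraries, or with a replicate block, 8 listed genes were called, and Ifit2 among them was lower. Without 1 library the log2 fold changes ran from 0.55 to 0.70 for Gbp3, from 0.36 to 0.61 for Gbp7, from 0.64 to 0.86 for Parp14 and from 0.27 to 0.55 for Tmem173.

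The direction of the differences, tested or not, was uneven. The estimated log2 fold change was above 0 for 39 of the 51 genes and below 0 for 12, with a median of 0.17, against a median of 0.001 over all genes tested. Both shOGT libraries lay above both ctrl libraries for 24 of the 51 genes (47.1%), against 25.0% of all genes, and below both for 5 (9.80%), against 24.3% of all genes. The median was 0.11 over the 28 genes with a mean of at least 100 and 0.43 over the 23 below it. Genes in 1 culture respond together and are not independent of each other.

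**Figure D2:**
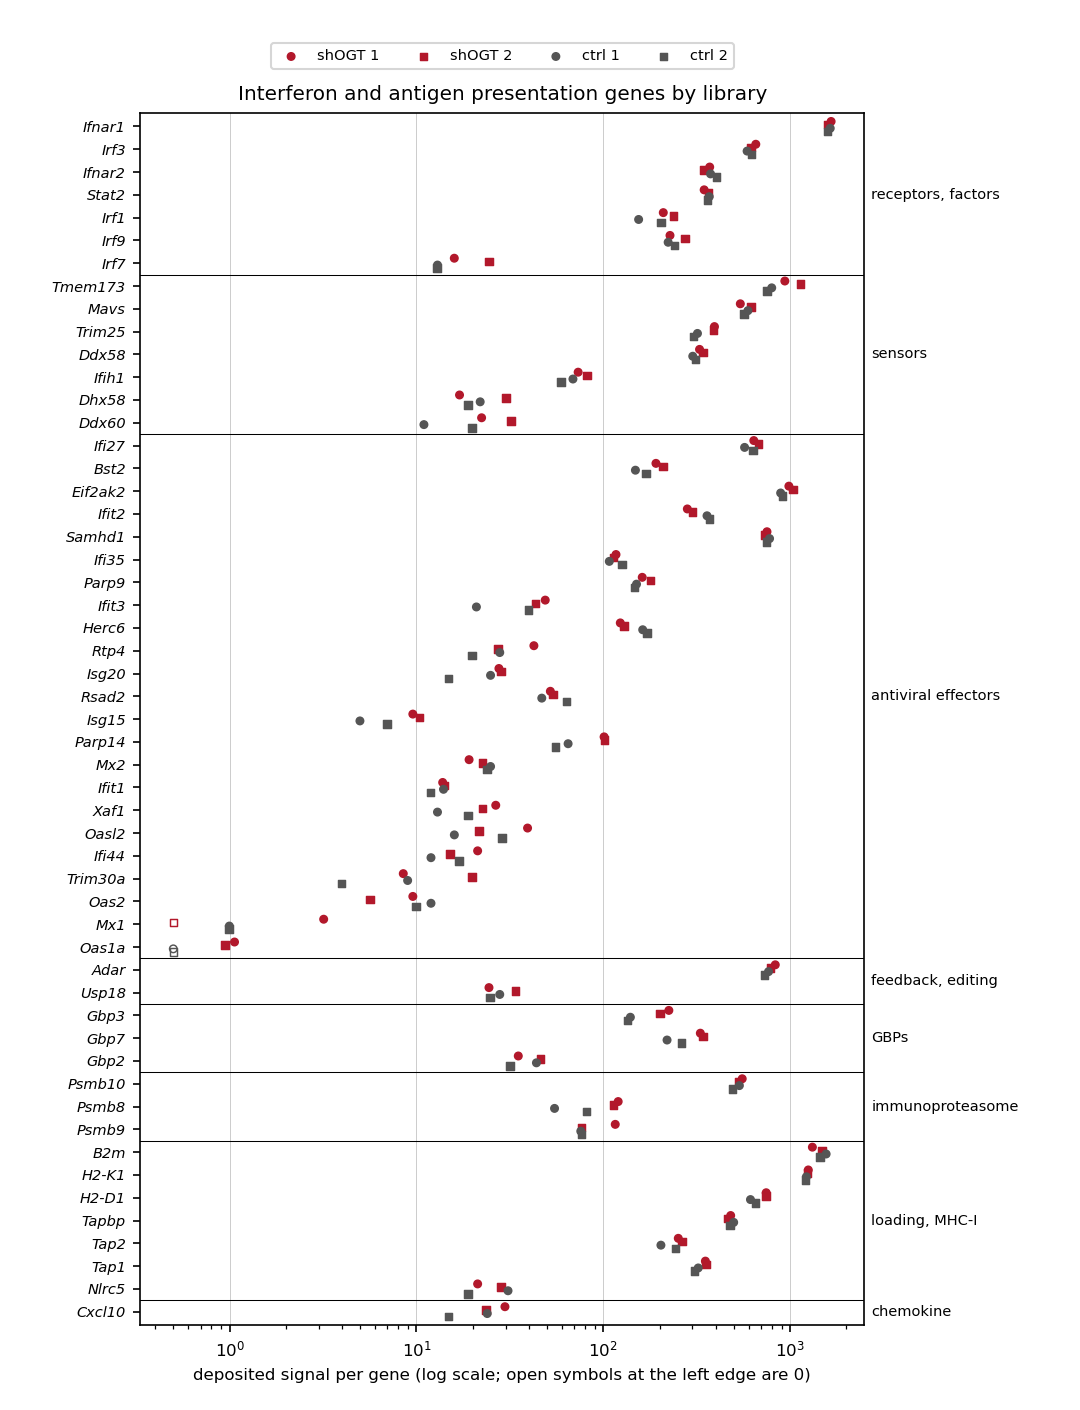
Deposited signal (log axis) of the genes by role, with 1 point per library, shOGT in red above ctrl in grey within each row and open symbols at the left edge for 0. Levels are lowest for Oas1a and Mx1 and highest for Ifnar1, B2m and H2-K1, and the 2 groups lie close together for most genes.

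**Figure D3:**
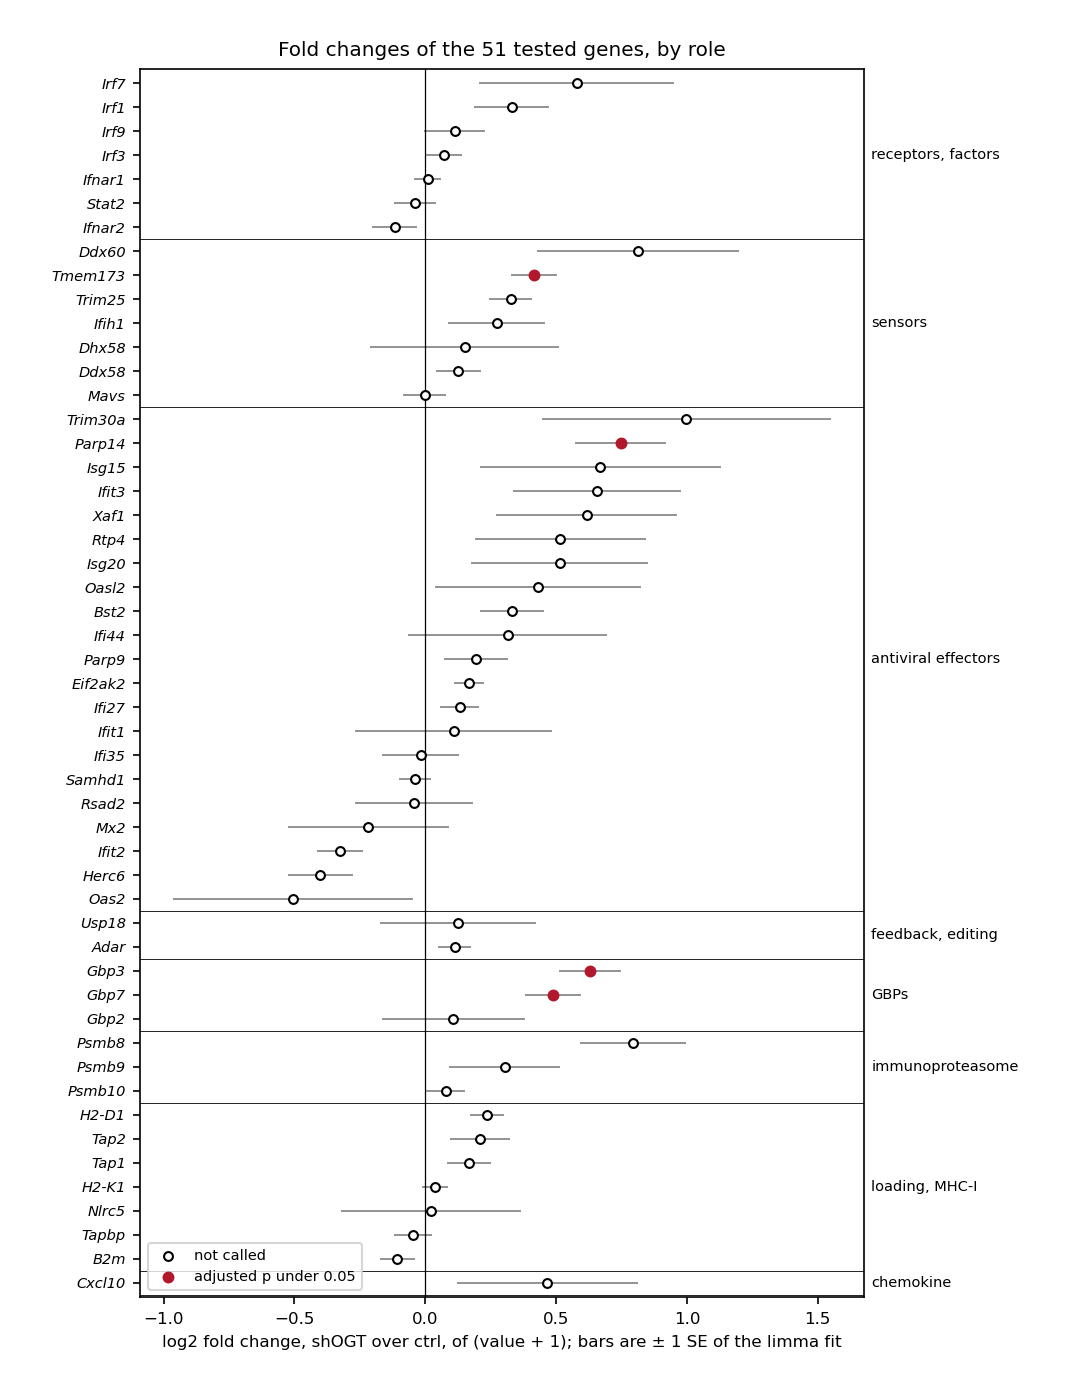
Log2 fold change (shOGT over ctrl, on log2(signal + 1)) of the 51 tested genes by role, with bars of 1 SE of the limma fit to each side. The filled points are the called genes Gbp3, Gbp7, Tmem173 and Parp14, and the widest bars belong to low genes such as Trim30a and Isg15.

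None of the 7 genes for the receptor and the factors that carry the interferon signal passed the test. Ifnar1 had a signal of 1656 and 1588 in shOGT and 1639 and 1587 in ctrl, and the 95% interval of its log2 fold change ran from -0.10 to 0.12. Its partner Ifnar2 had 371 and 346 in shOGT against 375 and 403 in ctrl (interval -0.31 to 0.07). The transcription factor Stat2 had 347 and 365 in shOGT and 369 and 362 in ctrl (interval -0.22 to 0.14). The groups of Ifnar1 and Stat2 overlapped, while both shOGT libraries were below both ctrl libraries for Ifnar2. Irf9, the DNA-binding partner of Stat2, had 228 and 274 in shOGT and 222 and 240 in ctrl. Irf3, which sensors activate to switch on interferon genes, had 655 and 618 in shOGT and 588 and 622 in ctrl. Irf1, a factor that also drives antigen presentation genes, had 209 and 238 in shOGT against 155 and 203 in ctrl (0.33 ± 0.14 SE, limma adjusted p = 0.253). Its value fell to 0.13 without ctrl 1. Irf7, which amplifies interferon production, was near the bottom of the range, with 15.9 and 24.5 in shOGT against 12.96 and 12.90 in ctrl (0.58 ± 0.37 SE).

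Among the sensors of foreign nucleic acid and their adaptors, 1 of 7 tested genes was called (14.3%, against 4.86% of all genes tested). Tmem173 encodes STING, the adaptor at the endoplasmic reticulum that relays the detection of DNA in the cytosol. Its signal was 937 and 1138 in shOGT against 797 and 753 in ctrl. Both shOGT libraries lay above both ctrl libraries, shOGT 2 the more so. The group means were 1037 ± 142 and 775 ± 31.0 (SD, n = 2 each), and the limma estimate was 0.41 ± 0.09 (SE, adjusted p = 0.0298). Without shOGT 2 the value was 0.27. Per kilobase of exon and scaled to an equal total per library (TPM, computed from the signal), Tmem173 was the fourth highest of the listed genes, at 77.2 TPM in shOGT and 56.4 TPM in ctrl.

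The receptors for viral RNA were present at lower levels. Ddx58 encodes RIG-I, which binds RNA with a free 5′ triphosphate, and had 327 and 341 in shOGT against 301 and 311 in ctrl (0.13 ± 0.09 SE). Ifih1 encodes MDA5, a sensor of long double-stranded RNA, and had 73.4 and 82.0 in shOGT against 68.8 and 59.5 in ctrl (0.27 ± 0.19 SE). In both genes the shOGT libraries were above the ctrl libraries by less than the test could separate. Mavs, the mitochondrial adaptor of these sensors, had 541 and 618 in shOGT and 594 and 565 in ctrl, with a 95% interval of -0.18 to 0.18. Trim25, the ubiquitin ligase that acts on RIG-I, had 393 and 389 in shOGT against 319 and 305 in ctrl (0.33 ± 0.08 SE, limma adjusted p = 0.0552), just outside the threshold. Ddx60, a helicase linked to the RNA sensors, had 22.3 and 32.1 in shOGT against 11.0 and 19.8 in ctrl (0.81 ± 0.39 SE, limma adjusted p = 0.287), and the estimate was 0.41 without ctrl 1. Dhx58, the sensor LGP2, had 17.01 and 30.2 in shOGT and 21.9 and 18.8 in ctrl, which overlap.

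The antiviral effectors were the largest class, and 1 of the 21 tested was called (4.76%, near the 4.86% of all genes tested). Parp14, an ADP-ribosyltransferase, had a signal of 101.0 and 101.8 in shOGT against 64.8 and 55.6 in ctrl. The shOGT libraries were nearly equal and both stood well above the ctrl libraries. The means were 101.4 ± 0.569 and 60.2 ± 6.56 (SD, n = 2 each), and the log2 difference was 0.75 ± 0.17 (SE, limma adjusted p = 0.0427). Parp9, another member of the same enzyme family, had 162 and 179 in shOGT against 151 and 147 in ctrl (0.19 ± 0.12 SE). It overlaps Dtx3l on the opposite strand over 9.4% of its exon bases, and whether the counting used strand is not given in the sources used here.

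The genes most used as readouts of interferon were low. Isg15, the ubiquitin-like modifier, had 9.57 and 10.4 in shOGT against 4.99 and 6.94 in ctrl (0.67 ± 0.46 SE). Ifit1, which binds viral RNA lacking the host's cap methylation, had 13.8 and 14.1 in shOGT and 13.96 and 11.9 in ctrl. Rsad2 encodes viperin, an enzyme that makes a chain-terminating nucleotide, and had 52.1 and 53.7 in shOGT and 46.9 and 63.5 in ctrl. The groups of Ifit1 and Rsad2 overlapped. Mx1, a dynamin-like GTPase that is defective in many laboratory strains, had 3.19 and 0 in shOGT and 0.997 and 0.992 in ctrl. Oas1a, a synthetase of the RNase L activator, had 1.06 and 0.943 in shOGT and 0 and 0 in ctrl, which is a single step in each shOGT library. Neither was tested, and Oas1a shares 57.6% of its 50-base stretches of exon with other genes, most with Oas1g. Oas2, of the same synthetase family, had 9.57 and 5.66 in shOGT against 11.97 and 9.92 in ctrl.

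The IFIT genes, neighbours on chromosome 19 that share a fold and bind RNA, gave estimates of both signs. Ifit2 had a signal of 282 and 301 in shOGT against 359 and 371 in ctrl, with both shOGT libraries below both ctrl libraries (-0.33 ± 0.09 SE, limma adjusted p = 0.0671). Ifit3 had 48.9 and 43.4 in shOGT against 20.9 and 39.7 in ctrl (0.66 ± 0.32 SE, limma adjusted p = 0.303), and 0.21 without ctrl 1. Neither passed the test, and the difference between the 2 genes was not tested. Ifit3 shares 51.2% of its 50-base exon stretches with other genes, most with Ifit3b, so reads of the pair may have been split or dropped in counting. Herc6, which in mice attaches ISG15 to proteins, was also below ctrl in both shOGT libraries. Its signal was 123 and 129 in shOGT against 163 and 172 in ctrl (-0.40 ± 0.12 SE, limma adjusted p = 0.109). Herc6 shares 12.5% of its 50-base exon stretches with other genes, most with Gm45193, which lies over 13.7% of its exon bases on the same strand.

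Of the effectors with high levels, none was called. Ifi27 had the highest level of this class per kilobase, at 91.5 TPM in shOGT and 81.7 TPM in ctrl, with a signal of 639 and 676 in shOGT against 570 and 631 in ctrl (0.13 ± 0.07 SE, and 0.06 without ctrl 1). Eif2ak2 encodes PKR, the kinase that halts translation on double-stranded RNA, and had 985 and 1039 in shOGT against 890 and 912 in ctrl (0.17 ± 0.06 SE, limma adjusted p = 0.150). Bst2 encodes tetherin, which holds budding virions at the cell surface, and had 191 and 209 in shOGT against 149 and 170 in ctrl (0.33 ± 0.12 SE, limma adjusted p = 0.173). All 3 had both shOGT libraries above both ctrl libraries, yet missed the threshold. Samhd1, a hydrolase of deoxynucleotides, had 752 and 731 in shOGT and 776 and 748 in ctrl (interval -0.18 to 0.10). Trim30a had the largest estimate of the 51, 0.998 ± 0.55 SE, but at a signal of 8.51 and 19.8 in shOGT and 8.98 and 3.97 in ctrl, where the groups overlap, and it was 0.43 without shOGT 2. Xaf1, a pro-apoptotic interferon target, had 26.6 and 22.6 in shOGT against 12.96 and 18.8 in ctrl (0.62 ± 0.34 SE, limma adjusted p = 0.374), and 0.36 without ctrl 1. The remaining effectors were not called either. Isg20, an exonuclease, had 27.6 and 28.3 in shOGT against 24.9 and 14.9 in ctrl, without overlap. Mx2, a relative of Mx1 that the annotation lists as a polymorphic pseudogene, lay the other way, with 19.1 and 22.6 in shOGT against 24.9 and 23.8 in ctrl. In Rtp4, Oasl2, Ifi44 and Ifi35 the groups overlapped, with estimates of 0.52 ± 0.33, 0.43 ± 0.39, 0.31 ± 0.38 and -0.02 ± 0.15 (SE).

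**Figure D4:**
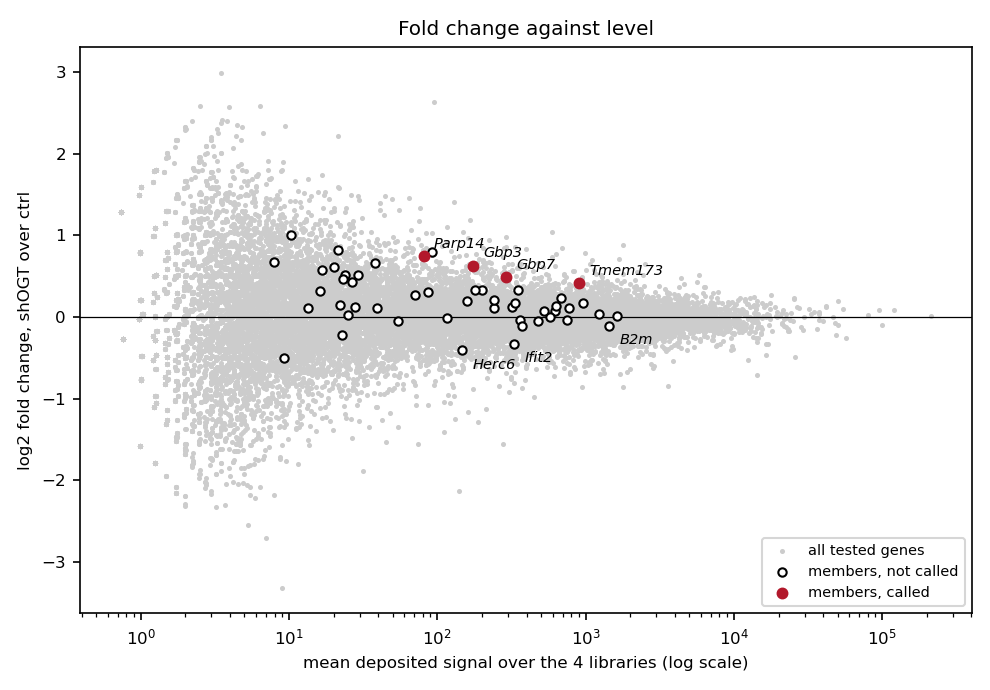
Log2 fold change (shOGT over ctrl) against the mean signal over the 4 libraries (log axis) for all tested genes in grey, the listed genes that were not called as open circles and the 4 called as red points. Listed genes with a mean below 100 spread widely, up to 0.998 for Trim30a, and those above it lie nearer to 0, with B2m at -0.11.

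Of the genes that restrain the response, neither was called. Usp18, the protease that removes ISG15 and blocks the receptor, had 24.5 and 33.9 in shOGT and 27.9 and 24.8 in ctrl. Adar edits adenosine in double-stranded RNA and so hides the cell's own RNA from MDA5; it had 832 and 785 in shOGT against 766 and 730 in ctrl (0.11 ± 0.06 SE, limma adjusted p = 0.383). It overlaps Chrnb2 on the opposite strand over 16.8% of its exon bases. Cxcl10, the chemokine that draws T cells, had 29.8 and 23.6 in shOGT and 23.9 and 14.9 in ctrl, and these groups overlapped.

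The guanylate-binding proteins are large GTPases that coat and break the membranes of pathogens. They held 2 of the 4 calls among 3 listed genes, all in 1 cluster on chromosome 3. Of all genes tested, 4.86% were called, and a share of 3 genes says little. Gbp3 (chr3:142560026-142573209 on GRCm38, plus strand) had a signal of 224 and 202 in shOGT against 140 and 135 in ctrl. Gbp7 (chr3:142530342-142550149, plus strand) had 331 and 342 in shOGT against 219 and 262 in ctrl. In both genes every shOGT library lay above every ctrl library, with gaps wider than the spread within a group. For Gbp3 the means were 213 ± 15.98 and 137 ± 3.33 (SD, n = 2 each), and the log2 fold change was 0.63 ± 0.12 (SE, limma adjusted p = 0.0187). For Gbp7 they were 336 ± 8.16 and 241 ± 30.0, with 0.49 ± 0.11 (SE, limma adjusted p = 0.0339). Gbp2 (chr3:142620602-142638008, plus strand), whose window also holds an ISRE core, was lower and did not differ beyond its spread, at 35.1 and 46.2 in shOGT and 43.9 and 31.7 in ctrl. Gbp7 shares 12.7% of its 50-base exon stretches with other genes, most with the pseudogene Gm43802 that lies over its exons, against 3.75% for Gbp3. The summed endothelial markers lay in the same direction, at 95.7 and 94.3 in shOGT against 60.8 and 72.4 in ctrl, and their part in these differences was not tested.

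Other genes of the family, not on the list, were measured as well. Gbp4 had 41.5 and 46.2 in shOGT against 12.96 and 18.8 in ctrl, the widest separation in the family (1.43 ± 0.31 SE, limma adjusted p = 0.0313). Gbp9 was just outside the threshold, at 0.54 ± 0.13 (SE, limma adjusted p = 0.0508). Gbp5, Gbp6 and Gbp11 had signals below 20 in every library, and none was called. Gbp4 shares 7.7% of its 50-base stretches with other genes, most with Gbp11.

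**Figure D5:**
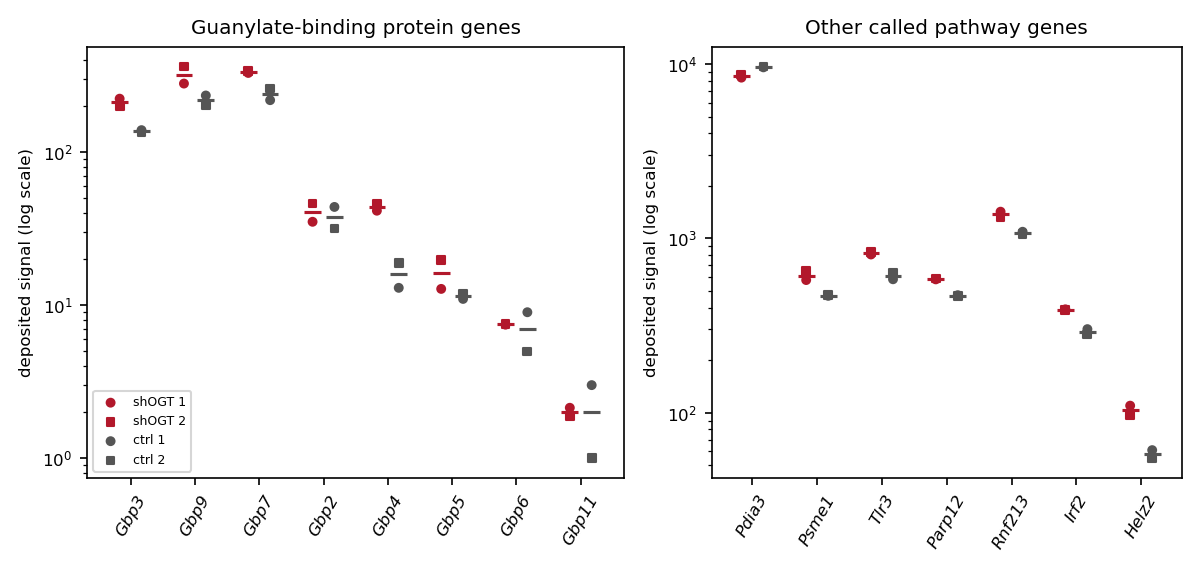
Deposited signal (log axis) per library of the tested guanylate-binding protein genes (left) and of the other pathway genes called different (right), with shOGT in red left of ctrl in grey and a bar at each group mean. Gbp3, Gbp4 and Gbp7, and also Gbp5 and Gbp9, which were not called, have both shOGT libraries above both ctrl libraries. Gbp2, Gbp6 and Gbp11 overlap. Pdia3 is the called gene that is lower in shOGT.

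The immunoproteasome replaces 3 catalytic subunits of the standard proteasome and cuts peptides suited to MHC class I. Psmb8 had a signal of 120.1 and 113 in shOGT against 54.9 and 81.3 in ctrl (0.79 ± 0.20 SE, limma adjusted p = 0.0597). The shOGT libraries were close to each other and above both ctrl libraries, which were far apart, and the estimate was 0.51 without ctrl 1. Psmb8 overlaps Gm20496 on the opposite strand over 14.7% of its exon bases. Psmb9 had 116 and 76.4 in shOGT and 75.8 and 76.4 in ctrl, so that shOGT 1 alone stood out. Psmb10, the most abundant of the 3 at 64.8 TPM in shOGT and 60.02 TPM in ctrl, had a signal of 554 and 528 in shOGT and 535 and 491 in ctrl (interval -0.09 to 0.25). None of the 3 was called.

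Peptide loading and the MHC class I molecules themselves gave 0 calls among 7 genes by limma, with 1 at an unadjusted p below 0.05. B2m, the light chain of every class I molecule, was the most abundant of the listed genes per kilobase, at 331 TPM in shOGT and 348 TPM in ctrl. Its signal was 1315 and 1477 in shOGT and 1558 and 1445 in ctrl, and the 95% interval of its log2 fold change ran from -0.26 to 0.04. H2-K1, a classical heavy chain, had 1250 and 1241 in shOGT and 1222 and 1207 in ctrl, an interval of -0.08 to 0.15. H2-D1, the other classical heavy chain, had 744.2 and 743.8 in shOGT against 613 and 652 in ctrl (0.23 ± 0.06 SE, limma adjusted p = 0.0743). Part of the sequence of these heavy chains is not unique: H2-D1 shares 12.8% of its 50-base exon stretches with other genes and H2-K1 9.63%.

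The transporter that carries peptides into the endoplasmic reticulum showed small differences. Tap1 had 352 and 354 in shOGT against 322 and 308 in ctrl (0.17 ± 0.08 SE, limma adjusted p = 0.321), and Tap2 had 252 and 264 in shOGT against 203 and 244 in ctrl (0.21 ± 0.11 SE, limma adjusted p = 0.360). Without ctrl 1 the Tap2 estimate was 0.08, and without ctrl 2 it was 0.34. Tapbp encodes tapasin, which links the transporter to class I molecules, and had 481 and 465 in shOGT and 499 and 477 in ctrl. Nlrc5, the coactivator of class I genes, was low, with 21.3 and 28.3 in shOGT and 30.9 and 18.8 in ctrl.

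A wider list of 149 genes of the same pathways, none of them among the 54, was read from the same fit. Of 117 found, 108 were tested, and 7 were higher and 1 was lower (7.41%, against 4.86% of all genes), with a median log2 fold change of 0.10. Of the 108, 58 had a mean signal of at least 100, a level at which 9.21% of all genes were called. The estimate was above 0 for 73 genes and below 0 for 35. Both shOGT libraries lay above both ctrl libraries for 42.6% of the 108 and below both for 16.7%, against 25.0% and 24.3% of all genes. Tlr3, the endosomal sensor of double-stranded RNA, had 808 and 839 in shOGT against 582 and 637 in ctrl (0.43 ± 0.07 SE, limma adjusted p = 0.00954). Irf2, a factor that binds the same element as Irf1, had 391 and 388 in shOGT against 301 and 281 in ctrl (0.42 ± 0.09 SE, limma adjusted p = 0.0248). Psme1, a proteasome activator subunit, had 576 and 648 in shOGT against 468 and 471 in ctrl (0.38 ± 0.08 SE, limma adjusted p = 0.0264). In each of these genes both shOGT libraries were above both ctrl libraries. The other 4 higher genes were Gbp4, Rnf213, Parp12 and Helz2. Rnf213, a large ubiquitin ligase, had 1423 and 1328 in shOGT against 1091 and 1059 in ctrl (0.35 ± 0.06 SE, limma adjusted p = 0.00969). Parp12, an ADP-ribosyltransferase, had 582 and 588 in shOGT against 472 and 466 in ctrl (0.32 ± 0.07 SE, limma adjusted p = 0.0313). Helz2, a helicase, had 109.5 and 96.2 in shOGT against 60.8 and 54.6 in ctrl (0.82 ± 0.18 SE, limma adjusted p = 0.0314).

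The gene called lower was Pdia3, a disulfide isomerase of the peptide-loading complex that also folds other glycoproteins, with 8372 and 8721 in shOGT against 9592 and 9687 in ctrl (-0.17 ± 0.04 SE, limma adjusted p = 0.0248). Of 16 listed interferon ligands, 1 was found, Ifnz, with a signal of 0 and 0.943 in shOGT and 0.997 and 0 in ctrl, and the other 15 are not analysed here.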

How the data were processed

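Total RNA of cultured adult neural stem cells was sequenced in 4 libraries, shOGT 1 and 2 and ctrl 1 and 2, grouped by the labels' treatment field and numbered by their titles. The deposited signal is 1 value per gene and library. The genome build is mm10, per the submitters' processing notes; aligner, counter, annotation, strand setting and normalization are each not given in the sources used here. Within each library all values were whole multiples of 1 step (within 0.01), from 0.943 to 1.06. They were used as deposited.

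Symbols came from GENCODE M21 (25242 of 25261 identifiers matched). Genes with a signal of at least 1 in at least 2 libraries were tested with limma 3.58.1 (R 4.3.3, empirical Bayes with a variance trend) on log2(signal + 1), which understates the change of low genes, and p-values were adjusted by Benjamini-Hochberg over all 21829 genes. TPM were computed from the signal and the union of exons. The fit was tested on simulated data. With 2 libraries against 2, an exact permutation test of a single gene cannot go below p = 0.333, so none is given.

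The 54 genes, the wider pathway list and the marker lists were chosen with earlier results of these data known. A few genes are not reported here. Fold change and SE are given for called genes and the 20 listed genes with the smallest p. For most of these the adjusted p is given too. Other listed genes have their signals, an estimate with SE or an interval. Same-numbered libraries did not deviate together (correlation 0.0073), so the numbers were not used as pairs. Promoter windows came from RefSeq (GRCm38.p6), and 41 of the 54 genes matched. Alternatives were other pseudocounts, filters, scalings and variance priors, a replicate block, and leaving out each library.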

Additional observations from a re-analysis of the deposited data

How the results depend on the processing

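The number of calls depended on the settings, and the balance of all calls turned from more lower to about even with equal totals (593 higher and 585 lower, against 427 and 633). Among the single genes recomputed, which were Ogt, the 20 listed genes with the smallest p and the other called pathway genes, none reversed its direction under any of the alternatives run; the rest of the listed genes were not followed one by one. Against 1060 calls over all genes and 4 among the listed genes, there were 1955 and 8 with a minimum of 10 in 2 libraries, and 1657 and 7 with quantile normalization and that minimum, an alternative chosen after seeing the data. There were 0 and 0 with no filter, with quantile normalization, and with no trend in the variance prior, also with a minimum of 10 (likewise chosen after seeing the data). At an unadjusted p below 0.05, limma gave 4302 and 12 with no filter, 3998 and 12 with quantile normalization, 2763 and 9 with no trend, and 2891 and 10 with no trend and that minimum. Leaving out 1 library gave 0 and 0 in all 4 cases, at an unadjusted p below 0.05 from 2484 to 3389 and from 7 to 13; each such fit has fewer samples, and the lone library is assumed to vary like the other group. The median log2 fold change of the listed genes was 0.13 to 0.21 over these 4 fits, against 0.17. Pseudocounts of 0.5 and 5 kept the same 4 listed genes. Psmb8 and Trim25 were added by equal totals, and H2-D1 and Ifit2 (lower) as well by the minimum of 10. A replicate block gave 2302 and 8, although the libraries share only a number: deviations of same-numbered libraries correlated at 0.0073, and at 0.0132 over genes with a mean of at least 10. The causes were not tested. The 2 planned tests on whole read counts were not run, since that a step is 1 read could not be settled for the ctrl libraries, whose steps lie close to 1. The depth of the libraries is therefore not certain, and signals below 10 are a few steps.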
